A study of Mus musculus with 6 samples.

Results

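The genes described here encode the TCF-1 and LEF-1 transcription factors and the core of the Wnt signalling pathway that feeds into them. They are *Tcf7* (TCF-1), *Lef1* (LEF-1), *Ctnnb1* (beta-catenin), *Axin1*, *Axin2*, *Apc* and *Gsk3b*. They were chosen by symbol from the 23183 gene symbols of the mRNA-seq tables, and all 7 were present in every table. Expression was measured in double-positive (DP) thymocytes, the CD4+CD8+ stage of T cell development, sorted from the thymus of 6-week-old C57BL/6 mice. The WT group carried floxed *Nsrp1* alleles without Cre (Nsrp1 f/f), and the NSrp70-cKO group carried the same floxed alleles with the CD4Cre transgene (Nsrp1 f/f CD4Cre). There were 3 libraries per genotype. In CD4Cre mice Cre is driven by CD4 regulatory elements, and the study placed the start of deletion in late double-negative thymocytes, just before the DP stage. NSrp70, encoded by *Nsrp1*, is a nuclear speckle protein that acts in alternative splicing. The comparison asks how its loss in DP thymocytes changes the mRNA of these factors.

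In the canonical Wnt pathway, beta-catenin is held at a low level by a destruction complex in which the scaffolds Axin and APC bring it to the kinase GSK3, which marks it for degradation. A Wnt ligand bound to a Frizzled and LRP receptor acts through Dishevelled to stop this complex, and beta-catenin then enters the nucleus and binds TCF/LEF proteins on DNA. TCF-1 and LEF-1 are high-mobility-group (HMG) box factors that T cell progenitors need for commitment, survival at the DP stage and the CD4+ lineage choice. In thymocytes they also act without beta-catenin, together with Groucho/TLE co-repressors.

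Some checks of the libraries bear on every value below. *Nsrp1* itself was 20.2, 20.7 and 21.1 FPKM (mapped fragments per transcript length and sequencing depth) in WT 1, 2 and 3 and 17.7, 15.8 and 15.0 FPKM in cKO 1, 2 and 3. It fell by 0.34 ± 0.08 (SE) on the log2 scale with a limma adjusted p of 0.00675, so mRNA of the targeted gene was lower but still present in every cKO library. The WT libraries differed among themselves by only 1.65 to 1.71 times the variance that counting noise gives, against 21.5 to 52.1 times among the cKO libraries. No label says that the libraries came from separate animals, so p-values measure the spread between these libraries, which may be technical. The test was therefore repeated with the WT libraries averaged as 1 sample, where the adjusted p of *Nsrp1* was 0.184. *Xist* was 69.8 to 72.0 FPKM in WT and 4.07 to 5.44 FPKM in cKO, and 4 chromosome Y genes were at 0 in WT and at 5.83 FPKM or more in cKO, so sex and genotype cannot be told apart. DP markers were present in all libraries, with a summed level over 9 markers of 5442 to 5519 FPKM in WT and 7184 to 9420 FPKM in cKO. Of these 9 markers, 6 were higher and 1 was lower in cKO. Of 5 markers of mature single-positive (SP) thymocytes, 4 were lower and 1 was higher in cKO, and their sum was 112 to 115 FPKM in WT and 98.1 to 120 FPKM in cKO. B cell markers reached at most 0.746 FPKM, and 0 of 3 tested myeloid markers passed the test. Of 4 thymic epithelial markers, *Krt5* and *Foxn1* were at 0, *Krt8* reached at most 0.108 FPKM, and *Epcam* was 3.44 to 3.71 FPKM in WT and 1.88 to 3.59 FPKM in cKO and did not pass the test. The erythroid gene *Hba-a1* was higher in cKO but reached at most 10.4 FPKM. The part that these cell type markers play in the results was not tested. In sorted bulk RNA, fewer cells of a type and less RNA per cell cannot be told apart.

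*Tcf7* lies on the minus strand of chromosome 11 at chr11:52252371-52283014 (GRCm38, GENCODE release M21) and *Lef1* on the plus strand of chromosome 3 at chr3:131110471-131224356. The annotation gives 2 transcripts for *Tcf7*, both protein coding, and 8 for *Lef1*, of which 4 are protein coding. TCF-1 and LEF-1 are made as long forms that bind beta-catenin and short forms that do not, and the table gives 1 value per symbol, so these forms were not separated here. By RT-PCR, the paper reports no effect of NSrp70 loss on genes tied to stages of T cell development. That assay used DP thymocytes sorted as negative or positive for CD69, a marker of positive selection. No such split is given for these libraries. The paper's text does not list those genes. If they include *Tcf7* and *Lef1*, the falls described below differ from that report, though in cells sorted otherwise. The paper's own DESeq2 test of these libraries was not compared here. The RT-PCR primers that the study designed for both genes are shown because they mark which transcripts such an assay sees.
Tcf7 forward: atttcagcagtccacacccc
Tcf7 reverse: gggtagagaggaggactggg
Lef1 forward: cgggaagagcaggccaaata
Lef1 reverse: taggcagctgtcattctggg
Both *Tcf7* primers matched 2 of 2 annotated transcripts, with a product of 166 bases. The *Lef1* pair matched 3 of 8 annotated transcripts, all 3 of them protein coding, with a product of 170 bases.

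RefSeq promoter windows (GRCm38.p6) were at hand for 5 of the 7 genes, *Tcf7*, *Lef1*, *Ctnnb1*, *Axin2* and *Gsk3b*. *Lef1* and *Axin2*, both textbook targets of beta-catenin and TCF/LEF, are shown with the 250 bases before their first listed start. For *Lef1* this RefSeq start lies upstream of the GENCODE start given above. Capitals mark the letters CTTTG or, for the other strand, CAAAG, the core of the sequence that the HMG box of TCF/LEF proteins binds.
Lef1 (chr3:131110047-131110296, plus strand): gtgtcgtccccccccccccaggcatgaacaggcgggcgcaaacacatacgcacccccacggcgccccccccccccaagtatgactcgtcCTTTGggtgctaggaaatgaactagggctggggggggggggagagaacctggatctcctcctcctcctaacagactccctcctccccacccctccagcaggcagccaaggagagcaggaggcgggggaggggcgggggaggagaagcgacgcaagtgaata
Axin2 (chr11:108920099-108920348, plus strand): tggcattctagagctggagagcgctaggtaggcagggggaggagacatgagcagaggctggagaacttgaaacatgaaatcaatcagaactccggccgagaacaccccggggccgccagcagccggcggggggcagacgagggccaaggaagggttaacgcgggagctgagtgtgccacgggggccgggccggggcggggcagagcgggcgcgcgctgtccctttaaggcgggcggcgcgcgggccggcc
The *Lef1* window held 1 match, 161 bases before the start, and the *Axin2* window held 0. The core was present in 48.6% of 32851 such windows across the genome, so a match describes the letters and nothing more. Among the other windows, the 4 *Lef1* windows held 1 to 3 matches each, *Gsk3b* held 1, and the *Tcf7* and *Ctnnb1* windows held 0. The longer motif CTTTGAT, which contains the core and was searched on both strands, was found in 3.21% of all windows and in 0 of the 10 windows of these genes. The printed *Lef1* window overlaps an exon of an annotated antisense RNA on the other strand. The library kit keeps strand, but whether counting used it is not given in the sources used here.

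Of the 7 genes, 5 were lower in NSrp70-cKO DP thymocytes, 0 were higher and 2 did not pass the test. Both HMG-box factors fell, and so did the scaffolds *Axin1* and *Axin2* and the kinase gene *Gsk3b*, whereas *Ctnnb1* and *Apc* did not pass. Changes were widespread in this comparison. Across the 10326 genes tested, 29.8% were lower and 35.8% were higher at a limma adjusted p under 0.05, and 65.5% passed in either direction. Counted in either direction, 5 of 7 is close to this background. Counted downward it lies above it, and that difference was not tested. Their median difference was -0.56 on the log2 scale, beside 0.04 over all genes tested. With the WT libraries as 1 sample, 2 of the 7 (*Lef1* and *Axin1*) passed, against 15.9% of all genes in either direction. In all 5 lower genes every cKO value lay below every WT value, an order seen in 33.3% of all tested genes. The genotypes did not overlap in 6 of the 7 genes and in 72.5% of all tested genes.

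**Figure D1:**
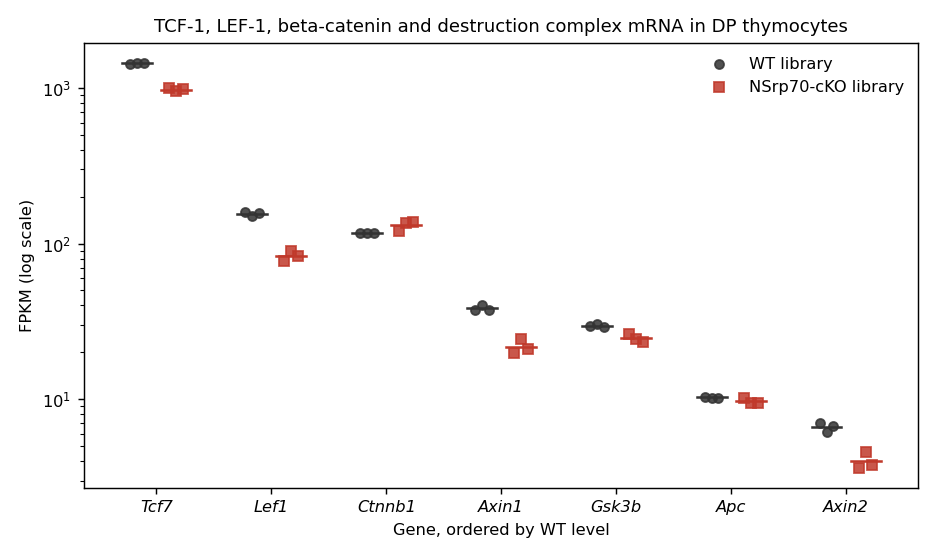
Level of each gene in FPKM on a log axis, with 1 point per library (circles WT, squares NSrp70-cKO, replicates 1 to 3 from left to right) and a line at the mean of the 3 libraries. *Tcf7* stood between 952 and 1449 FPKM, about an order of magnitude above *Lef1*, and the squares lie below the circles for *Tcf7*, *Lef1*, *Axin1*, *Gsk3b* and *Axin2*.

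*Tcf7* was among the most abundant mRNAs of these cells, ranking 57 to 59 by FPKM in the WT libraries and 113 to 132 in the cKO libraries. Its level was 1434, 1449 and 1441 FPKM in WT 1, 2 and 3 and 997, 952 and 980 FPKM in cKO 1, 2 and 3. The cKO libraries were close to each other and all below the WT libraries, at 976 ± 22.6 FPKM (SD, n = 3) against a WT mean of 1441, or 0.677 of it. The fall was -0.56 ± 0.10 (SE) on the log2(FPKM + 1) scale with an adjusted p of 0.00234 (limma, Benjamini-Hochberg). With the WT libraries as 1 sample the adjusted p was 0.197. The size of the *Tcf7* difference moved with the scaling of the libraries, from -0.41 once GC content and transcript length were corrected for to -1.31 after quantile normalization, and it was negative and passed under both.

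*Lef1* fell too, with a more negative difference than *Tcf7* except under quantile normalization (-1.28 against -1.31). It was 158, 151 and 157 FPKM in WT 1, 2 and 3 and 77.4, 89.6 and 83.4 FPKM in cKO 1, 2 and 3. The groups stood well apart, with a cKO mean of 83.5 ± 6.06 FPKM (SD, n = 3), 0.537 of the WT mean of 155. The difference was -0.89 ± 0.07 (SE) on the log2 scale with a limma adjusted p of 0.000166, and 0.0352 with the WT libraries as 1 sample. The share of all tested genes with a more negative difference was 6.51% for *Lef1* and 16.7% for *Tcf7*. Within each library, *Lef1* was 0.110, 0.104 and 0.109 of *Tcf7* in WT and 0.0777, 0.0941 and 0.0851 of it in cKO. No multiplication of a whole library changes this ratio, and all 3 cKO ratios lay below all WT ratios, with a log2 difference of -0.34. The exact two-sided permutation test gave p = 0.1, the smallest that 3 libraries against 3 allow.

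The other TCF/LEF family genes were scarce in both genotypes. *Tcf7l1* was 0.639, 0.729 and 0.908 FPKM in WT and 0.228, 0.145 and 0.324 FPKM in cKO. *Tcf7l2* was 0.887, 0.779 and 0.639 FPKM in WT and 0.353, 0.362 and 0.216 FPKM in cKO. Neither reached 1 FPKM in any library, so neither was tested, though the cKO values of both lay below the WT values. TCF/LEF mRNA of these DP thymocytes was therefore almost all *Tcf7* and *Lef1*, in that order.

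*Ctnnb1* encodes beta-catenin, which also links cadherins to the cytoskeleton. It was 117, 118 and 117 FPKM in WT 1, 2 and 3 and 120, 135 and 138 FPKM in cKO 1, 2 and 3. All 3 cKO values lay above the WT values, cKO 1 only just, an order seen in 39.2% of all tested genes. The difference was 0.16 ± 0.08 (SE) on the log2 scale, with a 95% interval of -0.02 to 0.33 and a limma adjusted p of 0.106. Its direction was not stable. Without cKO 1 it was 0.21 with an adjusted p of 0.0181. Quantile normalization gave -0.22 (adjusted p = 0.0352) and scaling to the same FPKM total gave -0.40 (adjusted p = 0.00743), so both passed as lower. The correction for GC content and length gave -0.14 with median transcript lengths and 0.19 with the longest coding transcripts.

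*Tcf7* relative to *Ctnnb1* separated the genotypes, although *Ctnnb1* itself did not pass. The ratio of *Tcf7* to *Ctnnb1* was 12.3 in each WT library and 8.34, 7.05 and 7.11 in cKO 1, 2 and 3, with a log2 difference of -0.72 and an exact two-sided permutation p of 0.1, the smallest possible. Once GC content and length (median over transcripts) were corrected for, this difference was -0.27. With the longest coding transcripts, *Tcf7* alone was -0.58 and *Ctnnb1* alone 0.19, close to their uncorrected differences. *Lef1* was above *Ctnnb1* in WT, at 1.36, 1.29 and 1.34 times its level, and below it in cKO, at 0.647, 0.663 and 0.605 times. That reversal in the order of levels was the only one among neighbouring genes that exceeded their spread.

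**Figure D2:**
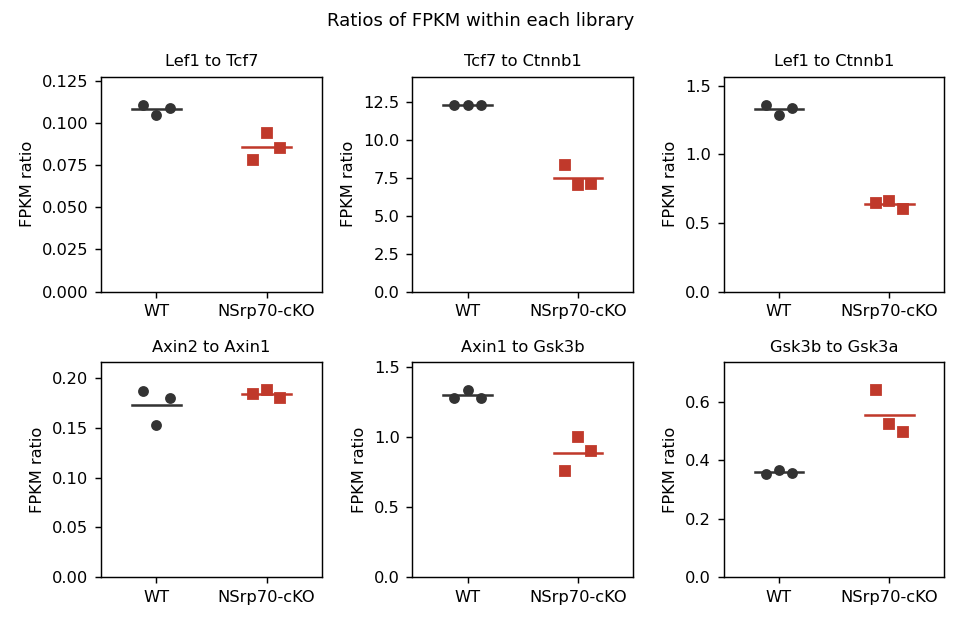
Ratios of FPKM between pairs of genes within each library, on linear axes that start at 0, with 1 point per library and a line at the mean of 3. *Lef1* to *Ctnnb1* had a mean of 1.33 in WT and 0.638 in cKO, whereas *Axin2* to *Axin1* overlapped between the genotypes.

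Of the destruction complex scaffolds, *Axin1* provides the constitutive platform and *Axin2* is its Wnt-induced counterpart. *Axin1* was 37.6, 40.3 and 37.4 FPKM in WT 1, 2 and 3 and 19.7, 24.5 and 20.97 FPKM in cKO 1, 2 and 3. The highest cKO value was thus far below the lowest WT value, and the cKO mean of 21.7 ± 2.46 FPKM (SD, n = 3) was 0.565 of the WT mean. The difference was -0.80 ± 0.09 (SE) on the log2 scale with a limma adjusted p of 0.000368, and 0.0395 with the WT libraries as 1 sample.

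*Axin2* had the lowest level of the 7 genes, at 7.03, 6.17 and 6.74 FPKM in WT and 3.63, 4.60 and 3.79 FPKM in cKO. The groups did not overlap, and the difference was -0.62 ± 0.10 (SE) on the log2 scale with a limma adjusted p of 0.00135. The pseudocount of 1 draws in a difference at this level, and the cKO mean of 4.01 ± 0.517 FPKM (SD, n = 3) was 0.602 of the WT mean. The *Axin2* call was lost with the WT libraries as 1 sample (adjusted p = 0.0644) and after correction for GC content and length with the longest coding transcripts (-0.27, adjusted p = 0.0551). About 193 to 594 fragments lay behind each *Axin2* value, a rough estimate that gives a counting error of 4.1 to 7.19%. The ratio of *Axin2* to *Axin1* was 0.187, 0.153 and 0.180 in WT and 0.184, 0.188 and 0.181 in cKO. These overlapped, with a log2 difference of 0.09 and an exact two-sided permutation p of 0.4.

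*Apc* encodes the large scaffold that is lost in most colorectal tumours. It was 10.4, 10.2 and 10.2 FPKM in WT 1, 2 and 3 and 10.2, 9.46 and 9.42 FPKM in cKO 1, 2 and 3. The genotypes overlapped at the level of cKO 1. The difference was -0.07 ± 0.07 (SE) on the log2 scale, with a 95% interval of -0.23 to 0.08 and a limma adjusted p of 0.356, and its sign turned to 0.03 under either correction for GC content and length. The ratio of *Apc* to *Axin1* was 0.275, 0.253 and 0.273 in WT and 0.519, 0.387 and 0.449 in cKO, given here as a description without a test.

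*Gsk3b* encodes GSK3 beta, the kinase that phosphorylates beta-catenin within the complex. It was 29.4, 30.3 and 29.3 FPKM in WT 1, 2 and 3 and 26.2, 24.5 and 23.4 FPKM in cKO 1, 2 and 3. The groups did not overlap, and the fall was -0.26 ± 0.07 (SE) on the log2 scale with a limma adjusted p of 0.0112. That is the smallest of the 5 falls, but with GC content and median transcript length corrected for it was -0.54 (adjusted p = 0.00144), beyond the -0.41 of *Tcf7*, the -0.48 of *Axin1* and the -0.47 of *Axin2*. The *Gsk3b* call was lost without WT 2 (adjusted p = 0.0576), with the WT libraries as 1 sample (0.271) and after correction for GC content and length with the longest coding transcripts (-0.12, adjusted p = 0.112). *Gsk3a*, the paralog that can stand in for *Gsk3b* in this complex, was more abundant and also fell. It was 83.2, 82.6 and 81.9 FPKM in WT and 40.9, 46.5 and 46.9 FPKM in cKO, a difference of -0.87 ± 0.07 (SE) on the log2 scale with a limma adjusted p of 0.000162. *Gsk3b* was 0.354, 0.367 and 0.357 of *Gsk3a* in WT and 0.640, 0.526 and 0.499 of it in cKO. *Gsk3a* also had the more negative difference with quantile normalization, the same FPKM total and the correction with the longest coding transcripts (-0.46 against -0.12). Of the settings compared for both genes, only the correction for GC content and median transcript length reversed this. It gave -0.38 for *Gsk3a* and -0.54 for *Gsk3b*.

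The order of FPKM levels in WT was *Tcf7*, *Lef1*, *Ctnnb1*, *Axin1*, *Gsk3b*, *Apc* and *Axin2*, and no WT value of one gene overlapped with a neighbour's. In cKO the order was *Tcf7*, *Ctnnb1*, *Lef1*, *Gsk3b*, *Axin1*, *Apc* and *Axin2*. Here *Gsk3b* (23.4 to 26.2 FPKM) and *Axin1* (19.7 to 24.5 FPKM) overlapped, so their order did not exceed their spread, and the other neighbours stood apart. *Axin1* moved most in rank among the destruction complex genes, from 2172 to 2346 in WT to 3627 to 4254 in cKO, while *Apc* stayed between 6160 and 6404 in all 6 libraries.

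**Figure D3:**
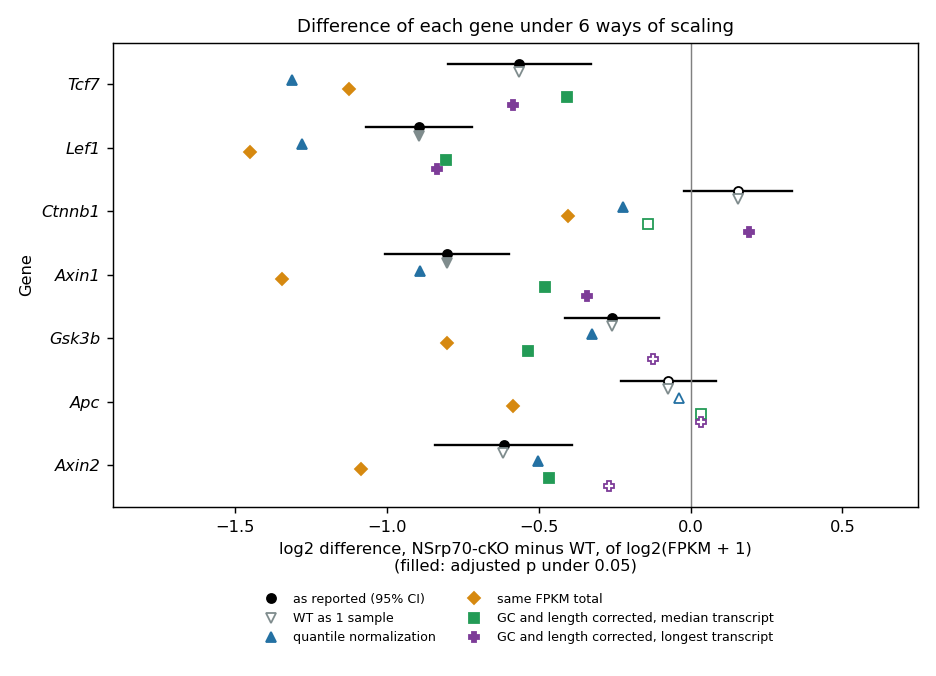
Difference of each gene between NSrp70-cKO and WT on the log2(FPKM + 1) scale under 6 ways of scaling, with filled symbols where the adjusted p was under 0.05. The black line is the 95% interval of the difference as reported, and *Tcf7*, *Lef1*, *Axin1*, *Axin2* and *Gsk3b* lie left of 0 throughout, whereas *Ctnnb1* and *Apc* lie on both sides.

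Giving every library an equal FPKM total moved the median of all genes from 0.04 to -0.45, since the FPKM totals were 521296 to 531517 in WT and 701396 to 850548 in cKO. Under it, *Tcf7*, *Lef1*, *Axin1* and *Axin2* changed by -1.12, -1.45, -1.34 and -1.08, and *Apc* by -0.58 (limma adjusted p = 0.0013). All 7 genes passed as lower, where 6181 of all 10326 genes were lower. Relative to the median of all genes, *Apc* was thus near the centre and *Lef1* well below it under both scalings.

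Beyond these 7, 86 further genes of the Wnt pathway were examined, and all 86 were in the tables, 18 of them at 0 in every library. The 32 that passed the filter on low values leaned downward, with 20 lower, 3 higher and 9 that did not pass the test, at a median of -0.61 on the log2 scale beside 0.04 over all genes, of which 29.8% were lower and 35.8% higher. With the WT libraries as 1 sample, fewer passed, here as over all genes, and the median of the 32 was again -0.61. Of the 32, 30 were at 1 FPKM or more in all 6 libraries, 18 of them lower and 3 higher. The other 2, *Fzd10* and *Dact1*, passed the filter through the WT libraries alone, which favours a lower call. The lower genes had a median GC content of 56.7%, against 47.4% for the other tested pathway genes and 50.7% for all tested genes. Across 10267 genes, which are not independent replicates, the log2 difference had a Spearman rho of -0.35 with GC content. With GC content and length corrected for, 20 of the 32 were lower and 4 were higher, or 17 and 5 with the longest coding transcripts. Of all 10267 genes so corrected, 2972 were lower and 3142 higher, or 2746 and 3074 with the longest coding transcripts. Genes outside the naming rule given with the processing that appear below were chosen after their values were seen.

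The Wnt ligands were mostly silent in the sorted DP cells. Of 19 ligand genes, 10 were at 0 in all libraries and 2 were tested, and none exceeded 4.71 FPKM. *Wnt8b* was 2.21, 2.55 and 2.32 FPKM in WT and 4.71, 2.97 and 3.64 FPKM in cKO, a rise of 0.49 ± 0.14 (SE) on the log2 scale with a limma adjusted p of 0.0175, which scaling to the same FPKM total took to 0.07. Its adjusted p was 0.177 with the WT libraries as 1 sample. *Wnt5b*, the other ligand tested, had a log2 difference of -0.01. The 12 secreted inhibitors, such as the Dickkopf and Sfrp genes, stayed at or below 0.134 FPKM and were not tested.

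All 4 tested receptor genes were lower, namely *Fzd10*, the co-receptors *Lrp5* and *Lrp6*, and *Znrf3*, which encodes a ligase that removes Frizzled from the surface. Among all tested genes, 29.8% were lower. *Fzd10* was 3.34, 3.05 and 3.47 FPKM in WT and 0.405, 0.411 and 0.612 FPKM in cKO. It passed the filter only through the WT libraries, and its difference was -1.54 ± 0.10 (SE) on the log2 scale with a limma adjusted p of 0.000101. The *Lrp5* difference of -0.74 was -0.15 and -0.08 under the GC and length corrections with median and longest transcripts, where it did not pass (adjusted p = 0.341 and 0.583). Of the 4, *Fzd10* alone passed with the WT libraries as 1 sample. The other 16 receptor genes were below the filter.

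The 3 Dishevelled genes, whose products carry the signal from receptor to destruction complex, were all lower. The share over all tested genes was 29.8%. *Dvl3* was 9.38, 9.57 and 8.44 FPKM in WT and 3.06, 2.97 and 2.62 FPKM in cKO, a difference of -1.38 ± 0.08 (SE) on the log2 scale with a limma adjusted p of 9.14e-05. *Dvl2* was 16.8, 16.6 and 14.6 FPKM in WT and 7.90, 7.80 and 7.88 FPKM in cKO, a difference of -0.94 ± 0.07 (SE), or -0.35 with GC content and length corrected for. *Dvl1* was 14.7, 15.8 and 15.8 FPKM in WT and 5.18, 8.26 and 3.93 FPKM in cKO, the widest spread of the 3, with a difference of -1.33 ± 0.21 (SE). The group's other tested gene, *Dact1*, was lower by -0.58 but passed the filter through the WT libraries alone. Its limma call was lost with quantile normalization (-0.28, adjusted p = 0.0595). It was also lost with GC content and median transcript length corrected for (-0.13, adjusted p = 0.409), but not with the longest coding transcripts (-0.38).

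The remaining destruction complex and turnover genes were mixed, with 3 lower, 1 higher and 6 that did not pass the test among 10 tested. The lower share was near the 29.8% of all tested genes, of which 35.8% were higher. Besides *Gsk3a*, the lower genes were the casein kinases *Csnk1d* and *Csnk1e*. *Csnk1a1*, which encodes the casein kinase that primes beta-catenin, was 136 to 141 FPKM in WT and 122 ± 5.77 FPKM (SD, n = 3) in cKO, with a limma adjusted p of 0.0555. *Tnks2* encodes a tankyrase that marks Axin for degradation. It was 56.9, 58.1 and 58.7 FPKM in WT and 67.0, 76.1 and 72.3 FPKM in cKO, a rise of 0.30 ± 0.07 (SE) on the log2 scale with a limma adjusted p of 0.00617. The adjusted p of *Tnks2* was 0.231 with the WT libraries as 1 sample. Its difference turned to -0.19 after correction for GC content and length with median transcript lengths and to -0.25 with the same FPKM total.

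Among the nuclear partners of TCF/LEF and beta-catenin, 9 of 11 tested genes were lower and 1 was higher. The shares over all tested genes were 29.8% and 35.8%. The Groucho/TLE co-repressor genes *Tle1*, *Tle2*, *Tle3* and *Tle4* were lower, with differences of -0.65, -1.60, -0.90 and -0.60 on the log2 scale. *Tle3* was 58.4, 59.1 and 57.2 FPKM in WT and 33.9, 29.7 and 29.1 FPKM in cKO (limma adjusted p = 0.000183). *Tle5*, the short family member, was far more abundant at 573 to 587 FPKM in WT and 554 to 795 FPKM in cKO, where it overlapped with WT. The co-activator genes *Bcl9*, *Bcl9l* and *Pygo2* and the beta-catenin relative *Jup* were lower too. Correction for GC content and length left 7 of the 11 lower and 2 higher with median transcripts, and 6 lower and 2 higher with longest transcripts. *Bcl9l* went from -0.92 to -0.19 and -0.15 and lost its call under both, and *Pygo2* went from -0.64 to -0.20 and -0.14 and lost it with the longest transcripts (adjusted p = 0.0841). *Cby1*, which encodes the beta-catenin antagonist Chibby, went the other way. It was 27.8, 29.9 and 28.7 FPKM in WT and 53.8, 49.0 and 55.7 FPKM in cKO, a rise of 0.85 ± 0.07 (SE) on the log2 scale with a limma adjusted p of 0.000184, and it was 0.30 with the same FPKM total.

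**Figure D4:**
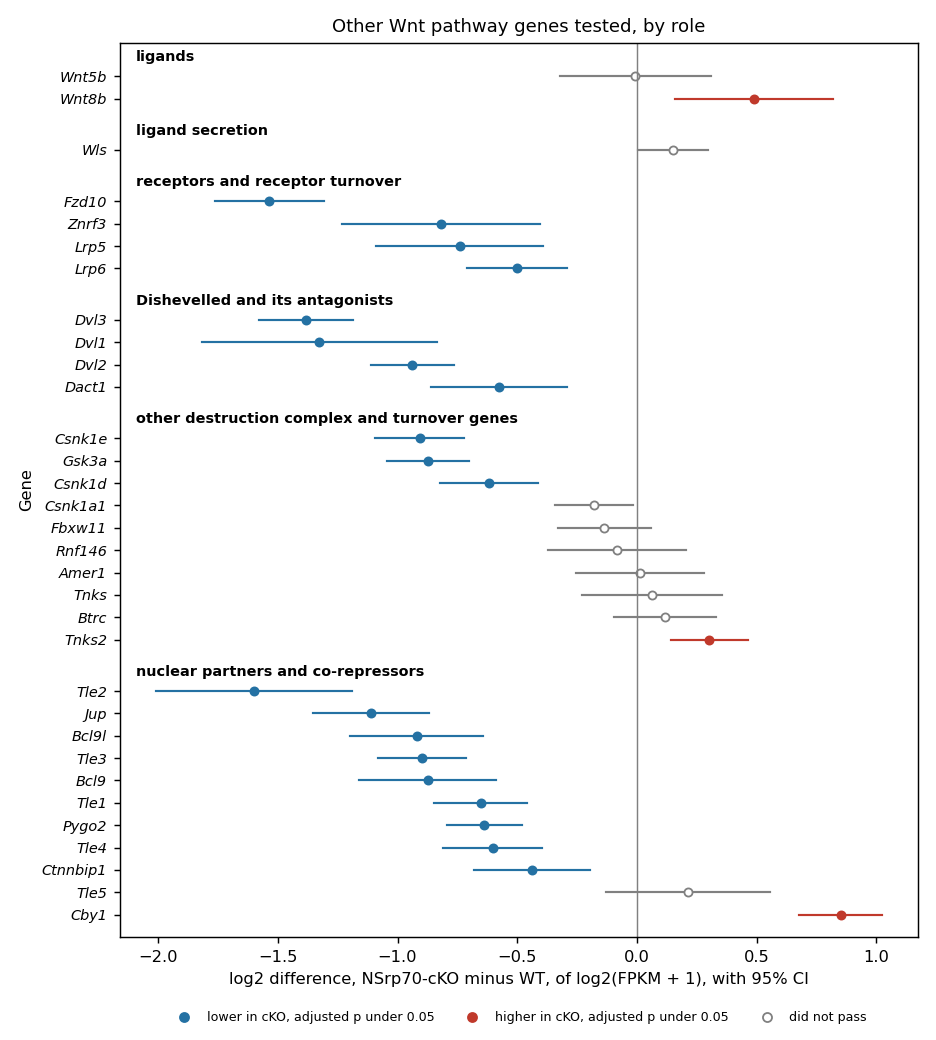
Log2 difference between NSrp70-cKO and WT, with its 95% interval, for the 32 other Wnt pathway genes that passed the filter, grouped by role. Blue points are lower and red points higher in cKO at an adjusted p under 0.05, and open grey points did not pass. The 4 receptor and 4 Dishevelled-group genes are all blue, and *Cby1* is the gene farthest to the right. Among the blue points, *Fzd10* and *Dact1* passed the filter through the WT libraries alone, which favours a lower call.

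A list of 12 textbook target genes of beta-catenin and TCF/LEF held 6 that passed the filter, of which 5 were lower, 0 were higher and 1, *Cd44*, did not pass the test. Over all tested genes, 29.8% were lower and 35.8% higher. Of the 5, *Tcf7*, *Lef1* and *Axin2* are described above and *Znrf3* is also a receptor gene, so *Myc* was the only further one. *Znrf3* was 5.86, 5.37 and 5.04 FPKM in WT and 2.69, 3.65 and 1.80 FPKM in cKO, a difference of -0.82 ± 0.18 (SE) on the log2 scale with a limma adjusted p of 0.00522. *Myc*, a driver of cell growth, was 10.96, 11.4 and 11.8 FPKM in WT and 7.78, 6.70 and 6.87 FPKM in cKO, a difference of -0.61 ± 0.08 (SE) with a limma adjusted p of 0.000649. Of the 6, *Lef1* alone passed with the WT libraries as 1 sample.

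Of 14 thymocyte genes tied to TCF-1 or LEF-1, all were tested, and 8 were lower, 5 were higher and 1 did not pass the test, where 29.8% of all tested genes were lower and 35.8% higher. Counting the WT libraries as 1 sample left fewer that passed, here as over all genes, with a median of -0.35 on the log2 scale. Correction for GC content and length with median transcripts left 5 lower and 5 higher, where 2972 of all 10267 genes were lower and 3142 higher. With the longest transcripts it left 8 lower and 5 higher, where 2746 of all genes were lower and 3074 higher. *Bcl11b*, a T lineage commitment factor, went from -0.57 to 0.00 under the correction with median transcripts. The lower genes included *Il7r*, the IL-7 receptor of cells leaving the DP stage. It was 5.86, 6.00 and 5.90 FPKM in WT and 1.22, 1.22 and 1.06 FPKM in cKO, a difference of -1.67 ± 0.07 (SE) on the log2 scale with a limma adjusted p of 4.82e-05. *Zbtb7b*, which encodes the CD4+ lineage factor ThPOK, was 2.72 to 3.05 FPKM in WT and 0.193 ± 0.119 FPKM (SD, n = 3) in cKO, and it passed the filter on low values through the WT libraries alone. *Runx3*, the CD8+ lineage factor, was 4.96 to 5.32 FPKM in WT and 1.80 ± 0.306 FPKM (SD, n = 3) in cKO. *Il7r* is also 1 of the 5 SP markers, and *Ccr7*, *S1pr1* and *Klf2* of that list were lower as well. The part of SP cells in these values was not tested.

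The higher genes of this list included the recombinase genes of the DP stage and *Themis*, a T cell receptor signalling gene. *Rag2*, *Rag1* and *Themis* rose by 0.56 ± 0.07, 0.61 ± 0.15 and 0.53 ± 0.08 (SE) on the log2 scale, with limma adjusted p-values of 0.000618, 0.0101 and 0.00145. These rises depended on the scaling. Quantile normalization gave 0.32, -0.18 and 0.04, and the same FPKM total gave 0.00, 0.05 and -0.03. With the WT libraries as 1 sample the adjusted p-values were 0.0708, 0.237 and 0.127.

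Genes with profiles most like those of the HMG-box factors were sought among all tested genes, as the smallest root mean square difference of log2 values over the 6 libraries after centring each gene on its WT mean. For *Tcf7* the nearest was *Satb1*, a chromatin organizer of thymocytes, which was 609, 610 and 616 FPKM in WT and 427, 412 and 420 FPKM in cKO and differed from the *Tcf7* profile by 0.0144. The next were *Dnmt3a* and *Pi4ka*, at 0.0186 and 0.0208. For *Lef1* they were *Bin2*, *Pla2g6* and *Csnk1e*, at 0.0229, 0.0340 and 0.0369. *Bin2* was 77.4, 75.3 and 77.2 FPKM in WT and 39.3, 43.4 and 40.9 FPKM in cKO. *Lef1* came 2290th among the genes nearest to *Tcf7*, at 0.247, its difference being more negative. With 6 libraries in 2 groups, likeness mostly reflects the size of the difference between genotypes, so it is given as a description.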

How the data were processed

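Poly(A) mRNA-seq libraries of sorted DP thymocytes were made with a directional kit after removal of ribosomal RNA and sequenced as paired ends. After trimming (fastx trimmer) and TopHat alignment to mm10, the authors deposited FPKM values from Cufflinks, 1 per gene symbol and library; versions, annotation and strand settings are not given in the sources used here. Groups came from the genotype labels. Depth, read from the steps between low FPKM values, was roughly 20.7 to 20.8 M fragments in WT and 13.1, 20.65 and 17.3 M in cKO 1, 2 and 3, assuming fragments of 200 bases; intervals from it cover counting error only. FPKM values were divided by median-of-ratios size factors (1.002 to 1.015), and log2(FPKM + 1) was fitted with limma 3.58.1 (R 4.3.3, trended eBayes) for the 10326 genes at 1 FPKM or more in at least 3 libraries, with Benjamini-Hochberg adjustment over all of them at 0.05. A fold on this scale understates the change of low genes. Ratios between genes were tested by exact permutation. Transcript length and GC content came from GENCODE M21 and covered 99.43% of tested genes. The script was tested on simulated data.

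The 7 genes and all lists were chosen with earlier results of these data known. Besides the 7 genes, *Nsrp1*, *Tcf7l1*, *Tcf7l2* and *Gsk3a*, genes were named by rule: up to 5 pathway genes per direction with the smallest adjusted p among called genes whose groups do not overlap, all called target genes, up to 3 per direction of the TCF-1 list, and the 3 nearest profiles. Alternatives were another pseudocount, no filter, no scaling, quantile normalization, the same FPKM total, no variance trend, a replicate block, WT as 1 sample, correction for GC content and length, and each library left out. Promoter windows came from RefSeq (GRCm38.p6).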

Additional observations from a re-analysis of the deposited data

How the results depend on the processing

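The falls of *Lef1* and *Axin1* kept their direction and passed under every alternative run, from -0.80 to -1.45 for *Lef1* and from -0.34 to -1.34 for *Axin1*. *Tcf7* stayed lower under all, from -0.41 to -1.31, and did not pass only with the WT libraries as 1 sample (-0.56, adjusted p = 0.197). *Ctnnb1* reversed to -0.14 after correction for GC content and length, -0.22 with quantile normalization and -0.40 with the same FPKM total, and *Apc* reversed to 0.033 and 0.034 under the GC corrections with median and longest transcripts, the latter chosen after seeing the data. With WT as 1 sample, 2 of the 7 genes were lower, and 12 other pathway genes were lower and 1 higher. With the longest transcripts, 3 of the 7 were lower and 1 higher (*Ctnnb1*, adjusted p = 0.0493), and 5 other pathway genes were higher. Quantile normalization left 6 of the 7 lower, *Ctnnb1* among them, and the same FPKM total left all 7 lower. With the same FPKM total, 29 other pathway genes were lower and 1 was higher. With no filter, where more genes were tested, 33 were lower. Over all genes, quantile normalization left 3041 of 10326 lower. The same FPKM total left 6181 lower and 902 higher, and no filter left 3625 of 16452 lower. The cause of the other changes was not tested.

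Leaving out each library in turn gave -0.54 to -0.58 for *Tcf7*, -0.84 to -0.94 for *Lef1*, -0.27 to -0.41 for the ratio of *Lef1* to *Tcf7*, 0.00 to 0.15 for *Axin2* to *Axin1* and -0.68 to -0.80 for *Tcf7* to *Ctnnb1* on the log2 scale. It left 4 to 5 of the 7 lower and 0 to 1 higher (*Ctnnb1* without cKO 1), and 20 to 22 other pathway genes lower and 2 to 4 higher.

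With the replicate number as a block, 5 of the 7 genes stayed lower, and *Tcf7* had an adjusted p of 0.0176. Same-numbered WT and cKO libraries correlated in their deviations at -0.02, 0.04 and 0.03, so the numbers do not pair them. The block called 2954 genes lower and 3513 higher, against 3073 and 3693 without it. Correction for GC content and length (median over transcripts) moved the ratio of *Tcf7* to *Ctnnb1* to -0.27. With the longest coding transcripts the ratio was not computed, but *Tcf7* was -0.58 and *Ctnnb1* 0.19, close to their uncorrected differences. *Axin2* is the gene most limited by depth.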

Other observations

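Additional gene lists around beta-catenin were drawn up after the tables had arrived, with earlier results of these data known. Of 9 adherens junction genes, the partners of beta-catenin at the membrane, 4 passed the filter on low values, and 1 was higher in cKO, 0 were lower and 3 did not pass the test. Over all tested genes, 35.8% were higher and 29.8% lower. *Iqgap1*, a cytoskeletal scaffold, was 66.7, 69.2 and 66.5 FPKM in WT and 102, 81.4 and 99.3 FPKM in cKO, a rise of 0.47 ± 0.10 (SE) on the log2 scale with a limma adjusted p of 0.00505, or 0.14 with the WT libraries as 1 sample, and 0.01 after correction for GC content and median transcript length. With the same FPKM total, 0 of the 4 were higher and 2 were lower, where 902 of all 10326 genes were higher and 6181 lower. *Ctnna1*, which encodes the alpha-catenin that binds beta-catenin directly, was 11.2, 11.3 and 11.3 FPKM in WT and 11.3, 12.01 and 13.8 FPKM in cKO, and its adjusted p was 0.233.

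Of 14 genes of planar polarity and other beta-catenin-independent Wnt signalling, 10 passed the filter, with 7 lower, 2 higher and 1 that did not pass the test. The shares of all tested genes were 29.8% lower and 35.8% higher. The polarity genes *Vangl2*, *Celsr1* and *Celsr2* were lower, by -0.64, -0.75 and -1.13 on the log2 scale. *Celsr2* was 3.55, 3.78 and 3.70 FPKM in WT and 1.28, 1.32 and 0.823 FPKM in cKO, with a limma adjusted p of 0.00028. *Prickle1* and *Rhoa* were the higher genes, at 0.32 ± 0.08 and 0.29 ± 0.09 (SE), with limma adjusted p-values of 0.00884 and 0.0204. With the WT libraries as 1 sample, fewer of the 10 passed, as over all genes, and their median was -0.39. After correction for GC content and median transcript length, 5 were lower and 1 was higher, where 2972 of all 10267 genes were lower and 3142 higher. *Celsr1* (-0.03) and *Vangl2* (-0.15) did not pass under it, and *Rhoa* turned to -0.04, and to -0.20 with quantile normalization.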
